A study of Saccharomyces cerevisiae with 12 samples.

Results

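The 10 genes described here encode enzymes of the citric acid cycle in Saccharomyces cerevisiae: CIT1, ACO1, IDH1, IDH2, KGD1, KGD2, LSC1, LSC2, FUM1 and MDH1. They were chosen by their standard gene names, and all 10 were found among the 5798 protein-coding ORFs in the poly(A) site profiles. The cycle runs in the mitochondrial matrix, where acetyl-CoA is joined to oxaloacetate and the resulting citrate is oxidised stepwise, with release of carbon dioxide, until oxaloacetate is formed again. All of its enzymes are encoded by nuclear genes, and their mRNAs are made and polyadenylated by the same RNA polymerase II (Pol II) and cleavage machinery as other mRNAs. In budding yeast, glucose lowers the expression of many of these genes, and the retrograde regulators Rtg1 and Rtg3 and the Hap activator complex are known to act on some of them.

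Poly(A) sites were mapped by 3′ READS, a sequencing assay for the ends of polyadenylated RNA, in an rpb4Δ strain (RPB3::RPB3-3xFLAG NAT, RPB4::HIS3) and a ubp8Δ strain (RPB3::RPB3-3xFLAG NAT, UBP8::HIS3). Rpb4 is a Pol II subunit and Ubp8 removes ubiquitin from histone H2B as part of the SAGA coactivator. Both strains therefore carried the FLAG-tagged Pol II subunit Rpb3 and a HIS3 marker, and both were grown in rich glucose medium (YPD) at 30 °C to mid-log phase. The authors pooled the 2 biological replicates of each strain into 1 profile, so no value has a replicate error and no difference between the strains could be tested against the spread between replicates. A wild-type 3′ READS profile was not analysed here, and a change in one deletion strain cannot be told apart from the opposite change in the other.

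The value of 1 read was 0.395 RPM (reads scaled to the library size) in rpb4Δ and 0.0614 RPM in ubp8Δ, which corresponds to 2529381 reads in rpb4Δ and 16276281 reads in ubp8Δ. The rpb4Δ library was thus the shallower one, and its weakly used sites are less completely sampled. The deleted genes matched the labels: no read fell in the RPB4 ORF in rpb4Δ (a limit of 1.19 RPM), against 244 reads in ubp8Δ, and the UBP8 ORF held 12 reads in rpb4Δ and none in ubp8Δ (a limit of 0.184 RPM). Errors and intervals below were computed from the reads. They cover counting error only, since the libraries were amplified by PCR and no molecular identifiers are named in the methods. A limit given beside 0 reads is the value of 3 reads.

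For every gene the profile covers a window of 400 nt that starts after the stop codon. Each nucleotide with signal was taken as a poly(A) site. Terminal As are removed before the reads are placed, so that a site is never itself an A, and cleavage may have occurred further downstream where the genome encodes As. Neighbouring sites of at least 1% of the window in either strain, with gaps of at most 10 nt, are called a cluster here. The sequences around the highest sites are shown because each held the most signal of its window in either or both strains. The MDH1 site at 396 nt lies inside the next gene, HOT13. CIT1, KGD2, LSC1, FUM1 and MDH1 shared their highest site between the strains. Each line gives 20 bases upstream, the site as a capital letter and 9 bases downstream, 5′ to 3′ on the sense strand, with coordinates of the SacCer3 build.
CIT1 site 120, chrXIV:629493-629522, minus strand: ggaaatggctatgacttcatGatttttacg
KGD2 site 109, chrIV:753557-753586, minus strand: ttaaagatatgctatgatgaTaaatggaac
LSC1 site 231, chrXV:594257-594286, plus strand: caagggtatacataaaggttGattaaagct
FUM1 site 41, chrXVI:48823-48852, plus strand: tatacaagttttttatgtctTattatatga
MDH1 site 396, chrXI:280503-280532, plus strand: atatagatgatcgaaactgcCatttatggt

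In ACO1, IDH1, IDH2 and KGD1 the highest site differed between the strains, and for each gene the highest site of rpb4Δ is listed before that of ubp8Δ. In IDH2 and KGD1 the paired sites lie close enough for the printed stretches to overlap. The IDH1 site at 171 nt had no read in ubp8Δ, whereas every other site shown was used in both strains.
ACO1 site 146, chrXII:735057-735086, minus strand: tatctcgtaatttatgatcgTatattattt
ACO1 site 178, chrXII:735025-735054, minus strand: ttattgattgttttattgttTatttattta
IDH1 site 171, chrXIV:557740-557769, minus strand: tgctcaggggtttttcttgcTtactgagat
IDH1 site 124, chrXIV:557787-557816, minus strand: gtctcaagattttctgtaatGataatttga
IDH2 site 154, chrXV:581493-581522, plus strand: taaaaattccgtatctactcCaaacttcta
IDH2 site 176, chrXV:581515-581544, plus strand: aacttctatggctttgtcctCaatgtgttc
KGD1 site 70, chrIX:125783-125812, plus strand: aatatttttaccttaatgttTatggacagc
KGD1 site 90, chrIX:125803-125832, plus strand: tatggacagcctttttacttGaagaatgat

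The number of reads in the window sets how much each gene can show. The windows of 9 of the 10 genes held at least 20 reads in both strains, from 33 reads (KGD1) to 1339 reads (FUM1) in rpb4Δ and from 280 reads (IDH1) to 8505 reads (FUM1) in ubp8Δ. LSC2 had 3 window reads in rpb4Δ and 4 in ubp8Δ and was left out of all counts. The same minimum was met by 4248 ORFs, which serve as the background. Genes on the opposite strand overlapped the windows of ACO1 (YNCL0038W, from 337 nt), LSC1 (SUF5, from 308 nt), FUM1 (YPL261C, from 194 nt) and LSC2 (MPC3, from 260 nt), and 0 reads of these 4 members ended within the overlap in either strain. For LSC2 the reads are too few for this to be informative. Reads at positions without a unique match, 83 in the ACO1 window, could not be placed, and whether these positions lie in the overlap was not examined. The overlaps in IDH1 and MDH1 did hold reads and are described with those genes.

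**Figure D1:**
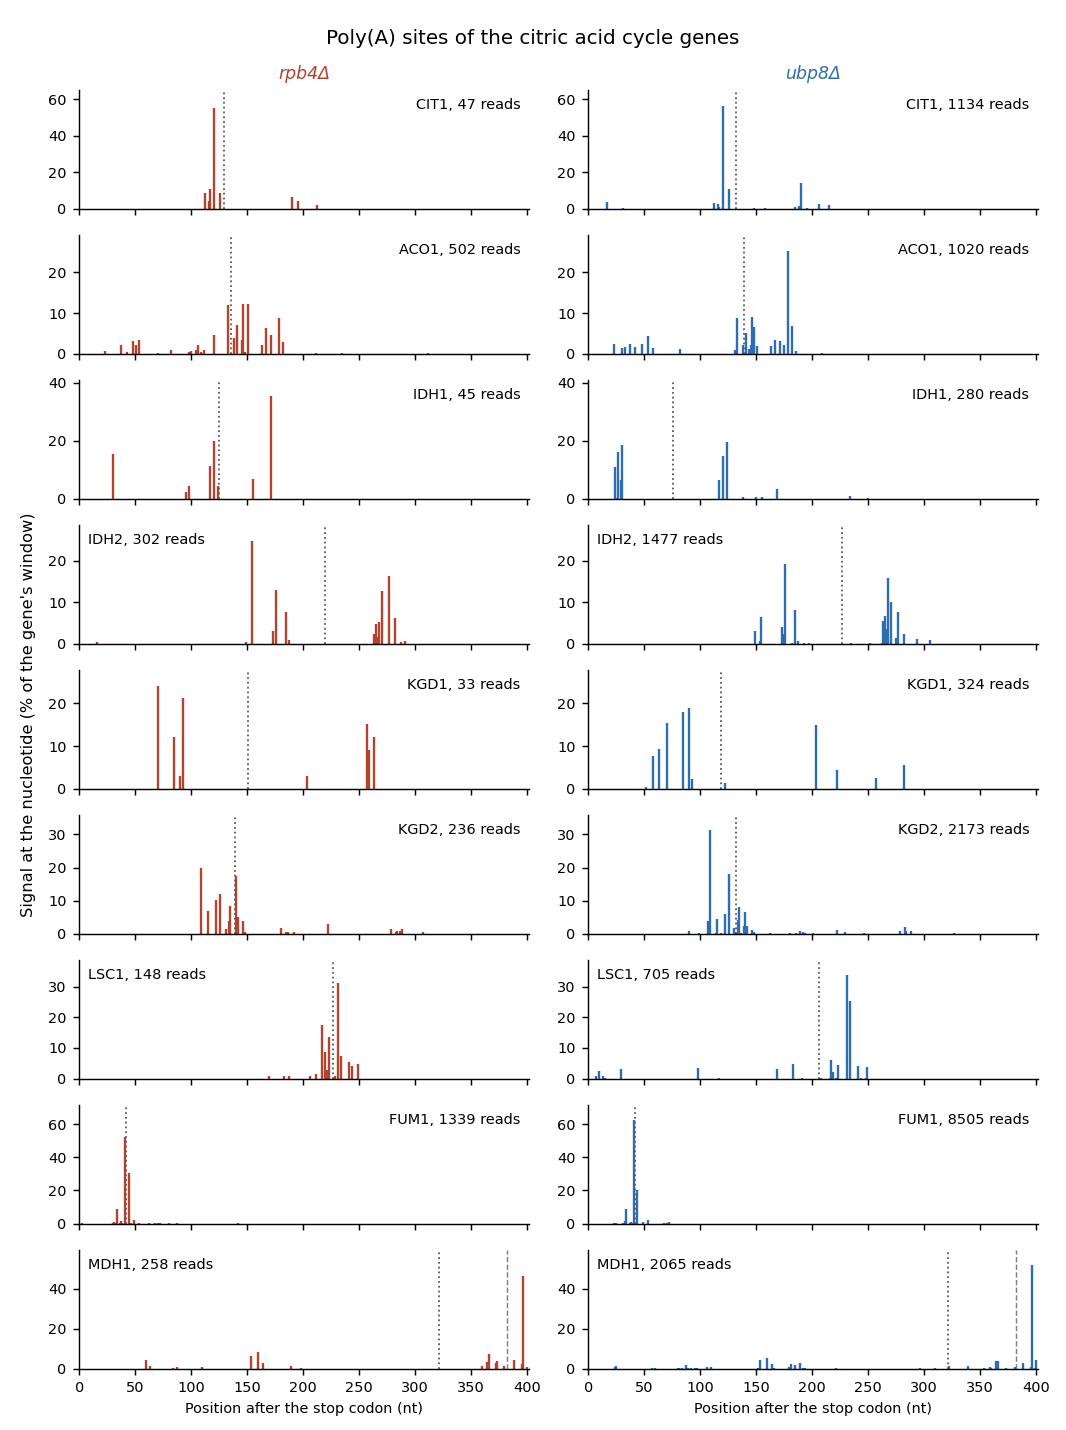
Signal at each nucleotide (y axis, percent of the gene's window signal) against its distance from the stop codon (x axis, nt) for the 9 genes with at least 20 window reads in both strains, with rpb4Δ on the left and ubp8Δ on the right. Dotted lines mark the weighted average position, and the dashed line in MDH1 marks the start of HOT13 at 382 nt. FUM1 signal is concentrated near 41 nt in both strains, while IDH1 had its highest site at 171 nt in rpb4Δ and at 124 nt in ubp8Δ.

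The position of the 3′ end was summarised as the weighted average, the mean position weighted by signal. The 9 genes differed far more from each other than between the strains. FUM1 had the shortest 3′ UTR, with a weighted average of 42.0 nt in rpb4Δ and 41.6 nt in ubp8Δ, and MDH1 the most distal profile, with 321.5 nt in rpb4Δ and 321.3 nt in ubp8Δ. The place of MDH1 rests in part on reads inside the next gene, HOT13. Without them its weighted average was 235.2 nt in rpb4Δ, still the most distal of the 9, and 210.1 nt in ubp8Δ, below IDH2 at 226.7 nt. The median over the 9 genes was 139.4 nt in rpb4Δ and 132.4 nt in ubp8Δ, against 122.2 nt in rpb4Δ and 123.5 nt in ubp8Δ over the 4248 ORFs. The median difference, rpb4Δ minus ubp8Δ, was 0.46 nt over the 9 genes and -0.58 nt over the ORFs.

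A difference of at least 10 nt was present in 3 of the 9 genes, IDH1, KGD1 and LSC1, and in 39.2% of the ORFs. In all 3 the weighted average was downstream in rpb4Δ, a direction taken by 18.3% of the ORFs. No member lay at least 10 nt upstream in rpb4Δ, compared with 20.9% of the ORFs. This direction depended on the measure. By the highest site, ACO1 (-32 nt), IDH2 (-22 nt) and KGD1 (-20 nt) lay upstream in rpb4Δ and IDH1 (47 nt) downstream. With sites of at least 5% of the window, ACO1 (-10.3 nt), IDH2 (-11.8 nt) and MDH1 (-32.9 nt) lay upstream, and IDH1 and KGD1 downstream. The shares of the ORFs by these 2 measures were not computed. The size of the weighted average difference without regard to direction had a median of 7.04 nt over the 9 genes and 6.76 nt over the ORFs. By this measure the members as a group were displaced about as much as other genes.

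**Figure D2:**
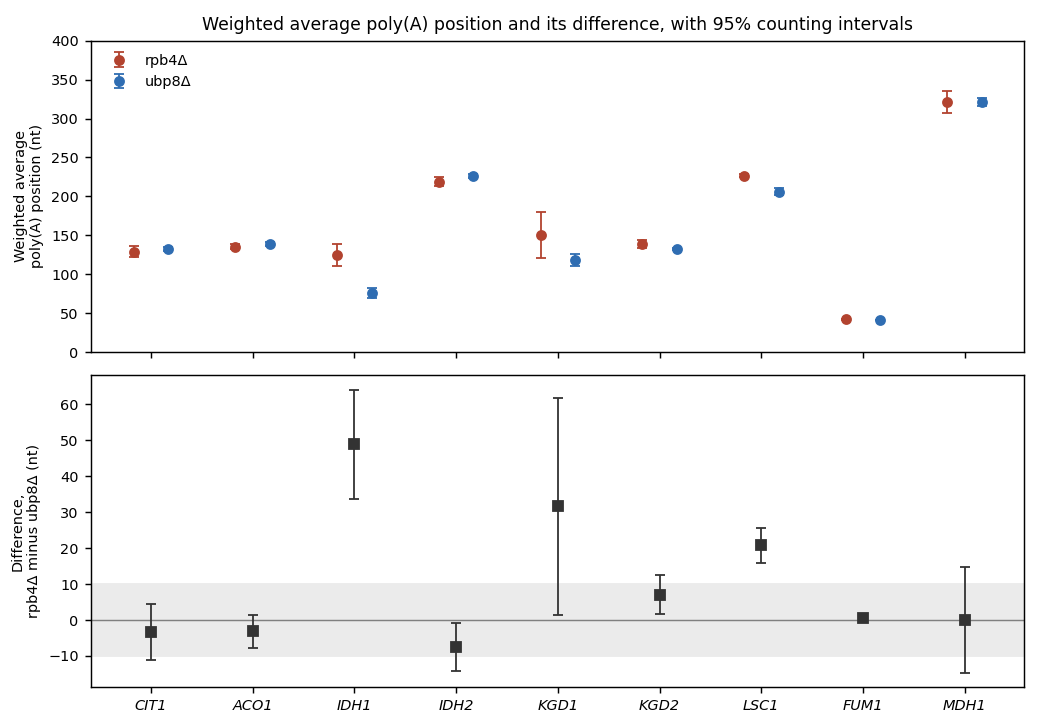
The upper panel gives the weighted average poly(A) position (nt) of each gene in rpb4Δ (left point) and ubp8Δ (right point), and the lower panel gives the difference, rpb4Δ minus ubp8Δ (nt). Bars are 95% counting intervals and the grey band marks 10 nt either way. IDH1, KGD1 and LSC1 lie above the band, at 48.9, 31.6 and 20.8 nt.

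The first step of the cycle is catalysed by citrate synthase, encoded by CIT1 (YNR001C, chrXIV:629622-631061, minus strand). Its window held 47 reads (18.6 RPM) in rpb4Δ and 1134 reads (69.7 RPM) in ubp8Δ. The RPM ratio of rpb4Δ to ubp8Δ was 0.267 (95% counting interval, 0.195 to 0.357), the lowest of the 9 genes. Although the levels differed, the leading site did not. The site at 120 nt took 55.3% of the window signal in rpb4Δ and 56.4% in ubp8Δ. A weaker distal cluster lay around 190 nt. The site at 190 nt took 6.40% in rpb4Δ and 14.3% in ubp8Δ, with a counting interval of 1.34% to 17.5% in rpb4Δ that includes the ubp8Δ value. The weighted average was 129.0 ± 3.76 nt in rpb4Δ and 132.4 ± 1.16 nt in ubp8Δ (counting SE). No read ended within 100 nt of the stop codon in rpb4Δ, a limit of 6.38%, and 4.14% of the reads did so in ubp8Δ, a share that could not have been told from 0 at the rpb4Δ depth.

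Aconitase, encoded by ACO1 (YLR304C, chrXII:735212-737548, minus strand), isomerises citrate to isocitrate and also has a known role in maintaining mitochondrial DNA. It was the member with the highest ratio. Its window held 502 reads (198.5 RPM) in rpb4Δ and 1020 reads (62.7 RPM) in ubp8Δ, a ratio of 3.17 (2.84 to 3.53). CIT1 and ACO1, which catalyse consecutive steps, thus differed between the strains in opposite directions. The ACO1 3′ ends were spread over 30 sites in rpb4Δ and 26 sites in ubp8Δ. The weighted averages were close, at 135.6 ± 1.76 nt in rpb4Δ and 138.8 ± 1.52 nt in ubp8Δ, but the use of single sites was not. The cluster from 133 to 151 nt took 51.6% of the reads in rpb4Δ (47.1% to 56.0%) and 36.8% in ubp8Δ (33.9% to 39.9%). The next cluster, from 163 to 182 nt, took 24.7% in rpb4Δ (20.99% to 28.7%) and 42.8% in ubp8Δ (39.7% to 45.9%). A site at 120 nt held 23 reads (4.58%) in rpb4Δ and 0 reads in ubp8Δ, although the ubp8Δ window had more reads. The sites at 146 and 151 nt had 62 reads each in rpb4Δ, so the highest site there is a tie. The 17-base placement of reads was not unique at 83 positions of this window, in which YNCL0038W on the opposite strand begins at 337 nt.

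IDH1 and IDH2 encode the subunits of the NAD-dependent isocitrate dehydrogenase, which oxidises isocitrate to alpha-ketoglutarate and requires both. IDH1 (YNL037C, chrXIV:557920-559002, minus strand) showed the largest difference in position of the 9 genes. Its weighted average was 124.8 ± 7.12 nt in rpb4Δ and 75.9 ± 3.18 nt in ubp8Δ, a difference of 48.9 ± 7.80 nt. The level was nearly equal, with 45 reads (17.8 RPM) in rpb4Δ and 280 reads (17.2 RPM) in ubp8Δ. A cluster from 24 to 30 nt took 15.6% of the reads in rpb4Δ (6.49% to 29.5%) and 52.5% in ubp8Δ (46.5% to 58.5%). A middle cluster from 117 to 124 nt was shared, with 35.6% in rpb4Δ and 40.7% in ubp8Δ. The site at 171 nt held 16 reads (35.6%, 21.9% to 51.2%) in rpb4Δ and 0 reads in ubp8Δ, a limit of 1.07%. The nearest signal in ubp8Δ lay at 169 nt, and the stretch from 169 to 171 nt held 9 reads (3.21%, 1.48% to 6.01%) there. Without the site at 171 nt, the weighted average was 99.3 nt in rpb4Δ and 75.9 nt in ubp8Δ, a difference of 23.4 nt, and the direction was kept. The convergent gene GPI15, on the opposite strand, covers the window from 137 nt onward, and 42.2% of the reads in rpb4Δ (27.7% to 57.9%) and 6.79% in ubp8Δ (4.14% to 10.4%) ended within this overlap.

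IDH2 (YOR136W, chrXV:580250-581359, plus strand) had 302 reads (119.4 RPM) in rpb4Δ and 1477 reads (90.7 RPM) in ubp8Δ, a ratio of 1.32 (1.16 to 1.49). Its 3′ ends fell into a proximal and a distal region with hardly any reads between them. The distal cluster, from 263 to 282 nt, took 49.0% of the reads in rpb4Δ (43.2% to 54.8%) and 53.0% in ubp8Δ (50.4% to 55.6%). As this is near an even split, the weighted median lay in the proximal region, at 187 nt, in rpb4Δ and in the distal cluster, at 263 nt, in ubp8Δ. The weighted averages were 219.1 ± 3.20 nt in rpb4Δ and 226.7 ± 1.29 nt in ubp8Δ. Within each region the leading site also differed. The site at 154 nt took 24.8% in rpb4Δ (20.1% to 30.1%) and 6.50% in ubp8Δ (5.30% to 7.88%), and the site at 268 nt took 5.30% in rpb4Δ (3.06% to 8.46%) and 15.8% in ubp8Δ (14.0% to 17.8%). The IDH2 window held 6.71 times the reads of the IDH1 window in rpb4Δ (4.89 to 9.40) and 5.28 times in ubp8Δ (4.64 to 6.02). This comparison needs no correction for transcript length, because each transcript is counted at its end and all windows have the same length. It misses ends beyond 400 nt and ends inside the ORF.

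KGD1 and KGD2 encode the alpha-ketoglutarate dehydrogenase component and the dihydrolipoyl transsuccinylase component of the complex that turns alpha-ketoglutarate into succinyl-CoA. KGD1 (YIL125W, chrIX:122689-125733, plus strand) had 33 reads (13.1 RPM) in rpb4Δ and 324 reads (19.9 RPM) in ubp8Δ, a ratio of 0.655 (0.444 to 0.939). The weighted average was 150.3 ± 14.9 nt in rpb4Δ and 118.7 ± 3.85 nt in ubp8Δ. The difference of 31.6 nt had a counting interval of 1.52 to 61.8 nt. The first 100 nt took 60.6% of the reads in rpb4Δ (42.1% to 77.1%) and 71.6% in ubp8Δ (66.4% to 76.5%), and these intervals overlap. The distal reads were placed differently. The cluster from 257 to 263 nt took 36.4% in rpb4Δ (20.4% to 54.9%) and 2.47% in ubp8Δ (1.07% to 4.81%), and the site at 203 nt took 3.03% in rpb4Δ (0.0767% to 15.8%) and 14.8% in ubp8Δ (11.1% to 19.2%). Taken by its highest site alone the order was opposite, with 70 nt in rpb4Δ (8 reads) and 90 nt in ubp8Δ (61 reads). The 33 reads of rpb4Δ therefore leave the KGD1 displacement poorly determined.

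KGD2 (YDR148C, chrIV:753675-755066, minus strand) had 236 reads (93.4 RPM) in rpb4Δ and 2173 reads (133.5 RPM) in ubp8Δ, a ratio of 0.699 (0.608 to 0.800). Its window held 7.15 times the reads of the KGD1 window in rpb4Δ and 6.71 times in ubp8Δ. Reads inside the ORF are not in these ratios. They numbered 402 in KGD1 and 33 in KGD2 in ubp8Δ, and 1 in KGD1 and 2 in KGD2 in rpb4Δ. The cluster from 107 to 146 nt took 88.6% of the reads in rpb4Δ and 90.3% in ubp8Δ. The leading site at 109 nt was used less in rpb4Δ, at 19.9% (15.02% to 25.6%), than in ubp8Δ, at 31.2% (29.3% to 33.2%). The site at 140 nt was used more in rpb4Δ, at 17.4% (12.8% to 22.8%), than in ubp8Δ, at 6.40% (5.40% to 7.51%). The weighted average was 139.4 nt in rpb4Δ and 132.3 nt in ubp8Δ.

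LSC1 and LSC2 encode the alpha and beta subunits of succinyl-CoA ligase, the step that yields a nucleoside triphosphate directly. LSC1 (YOR142W, chrXV:593057-594046, plus strand) had 148 reads (58.5 RPM) in rpb4Δ and 705 reads (43.3 RPM) in ubp8Δ, a ratio of 1.35 (1.12 to 1.62). Its weighted average was 226.8 ± 0.95 nt in rpb4Δ and 205.9 ± 2.31 nt in ubp8Δ, yet the highest site, at 231 nt, was the same. The reads in the first 136 nt make up much of this difference. There were 0 of them in rpb4Δ, a limit of 2.03%, and 80 (11.3%, 9.10% to 13.9%) in ubp8Δ. Within the main cluster, from 211 to 249 nt, the order of sites also differed. The site at 217 nt took 17.6% in rpb4Δ (11.8% to 24.7%) and 5.96% in ubp8Δ (4.33% to 7.97%), and the site at 234 nt took 7.43% in rpb4Δ (3.77% to 12.9%) and 25.3% in ubp8Δ (22.1% to 28.6%). These shares favour the upstream part of the main cluster in rpb4Δ, while the weighted average of the whole window lay downstream in rpb4Δ.

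LSC1 was the only member with a match to TGTANATA, the element recognised by Puf3, an RNA-binding protein known to bind many mRNAs of nuclear-encoded mitochondrial proteins. The match, TGTATATA, lay from 137 to 144 nt. All 148 window reads in rpb4Δ (97.5% to 100%) and 625 of 705 in ubp8Δ (88.7%, 86.1% to 90.9%) ended beyond it, and transcripts with those ends include the element. The motif was present in the window of 18.3% of the 5798 ORFs.

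LSC2 (YGR244C, chrVII:978036-979319, minus strand) was the exception in level. Its 3 window reads in rpb4Δ lay at 75, 153 and 227 nt with 1 read each, and its 4 reads in ubp8Δ all lay at 50 nt. This corresponds to 1.2 RPM (0.245 to 3.47) in rpb4Δ and 0.250 RPM (0.0670 to 0.629) in ubp8Δ, whose ratio of 4.83 has an interval of 0.707 to 28.5. The LSC1 window held 49.3 times the reads of the LSC2 window in rpb4Δ (16.6 to 242) and 176.2 times in ubp8Δ (68.5 to 648.7). The ORF of LSC2 held 2 reads in rpb4Δ and 20 reads in ubp8Δ, more than the window in ubp8Δ. The ORF of LSC1 held 16 reads in rpb4Δ and 145 in ubp8Δ. Reads inside the ORFs are not in the ratios of LSC1 to LSC2, which describe the windows only.

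Fumarase, which hydrates fumarate to malate, is encoded by FUM1 (YPL262W, chrXVI:47336-48802, plus strand), and the product of this single gene serves both the mitochondria and the cytosol. FUM1 had the highest level of the 10 genes in both strains, above that of 95.22% of the ORFs in rpb4Δ and 94.98% in ubp8Δ. Its window held 1339 reads (529.4 RPM) in rpb4Δ and 8505 reads (522.5 RPM) in ubp8Δ, a ratio of 1.01 (0.956 to 1.07). Its 3′ ends lay close together. The cluster from 33 to 53 nt took 96.4% of the reads in rpb4Δ and 97.5% in ubp8Δ. Inside this narrow group the 2 leading sites shared the reads differently. The site at 41 nt took 52.4% in rpb4Δ (49.7% to 55.1%) and 62.2% in ubp8Δ (61.1% to 63.2%), and the site at 44 nt took 30.2% in rpb4Δ (27.7% to 32.7%) and 20.4% in ubp8Δ (19.5% to 21.3%). The weighted averages of 42.0 and 41.6 nt differed by only 0.46 nt (0.0182 to 0.907), since an exchange between neighbouring sites moves them little.

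MDH1 (YKL085W, chrXI:279123-280127, plus strand) encodes the mitochondrial malate dehydrogenase, which closes the cycle by oxidising malate to oxaloacetate. Its window held 258 reads (102.0 RPM) in rpb4Δ and 2065 reads (126.9 RPM) in ubp8Δ, a ratio of 0.804 (0.704 to 0.916). The highest site, at 396 nt, lay inside the ORF of HOT13, which begins at 382 nt on the same strand and encodes a protein of the mitochondrial intermembrane space. The part of the window inside HOT13 took 53.9% of the reads in rpb4Δ (47.6% to 60.1%) and 59.9% in ubp8Δ (57.7% to 62.0%). These profiles do not show whether those RNAs began at MDH1. Upstream of HOT13 there were 119 reads (47.1 RPM) in rpb4Δ and 829 reads (50.9 RPM) in ubp8Δ, and the highest site there was at 160 nt in both strains. Restricted to these positions, the weighted average was 235.2 nt in rpb4Δ and 210.1 nt in ubp8Δ, a difference of 25.1 nt, compared with 0.10 nt over the whole window. The start of HOT13 divides a cluster from 360 to 400 nt, so the restricted values depend on this cut. The whole cluster took 73.6% of the reads in rpb4Δ (67.8% to 78.9%) and 68.2% in ubp8Δ (66.2% to 70.2%). It reaches the end of the window, and ends beyond 400 nt are missed in the position and level of MDH1. A small cluster from 60 to 63 nt held 14 reads (5.43%, 3.00% to 8.94%) in rpb4Δ and 1 read (0.0484%, 0.00123% to 0.270%) in ubp8Δ.

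The levels of the 10 genes spanned a wide range in both strains. In rpb4Δ the order was FUM1, ACO1, IDH2, MDH1, KGD2, LSC1, CIT1, IDH1, KGD1 and LSC2. The counting intervals of neighbours overlapped for IDH2 and MDH1, for MDH1 and KGD2, for CIT1 and IDH1 and for IDH1 and KGD1. In ubp8Δ the order was FUM1, KGD2, MDH1, IDH2, CIT1, ACO1, LSC1, KGD1, IDH1 and LSC2, with overlap for KGD2 and MDH1, for CIT1 and ACO1 and for KGD1 and IDH1. The place of MDH1 includes its reads inside HOT13. Without them it had 47.1 RPM in rpb4Δ, below LSC1, and 50.9 RPM in ubp8Δ, below CIT1 and ACO1. ACO1 stood above 85.7% of the ORFs in rpb4Δ and above 66.5% in ubp8Δ. CIT1 stood above 40.4% of the ORFs in rpb4Δ and above 68.6% in ubp8Δ, and KGD2 above 73.4% in rpb4Δ and above 80.8% in ubp8Δ.

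**Figure D3:**
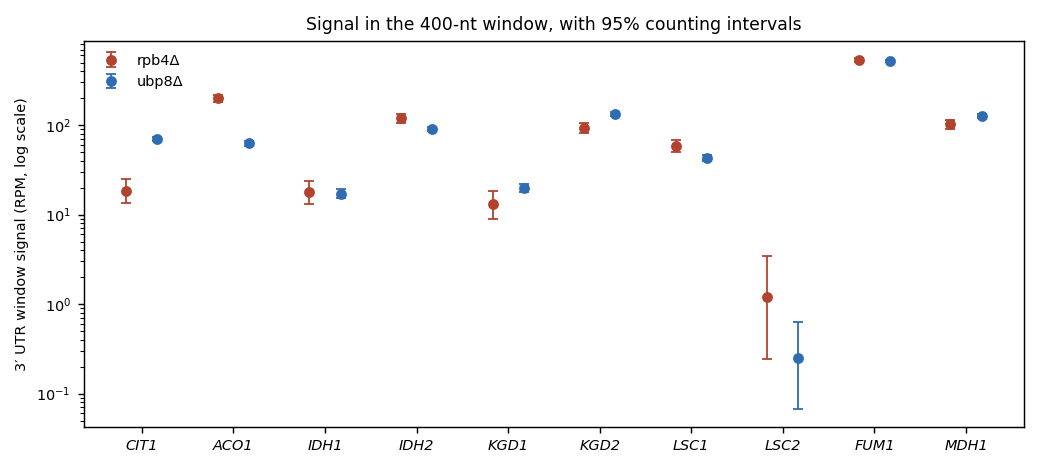
Summed signal of the 400-nt window (RPM, log scale) for the 10 genes in rpb4Δ (left point) and ubp8Δ (right point), with bars for 95% counting intervals. ACO1 is at 198.5 RPM in rpb4Δ and 62.7 RPM in ubp8Δ, CIT1 is at 18.6 RPM in rpb4Δ and 69.7 RPM in ubp8Δ, and LSC2 lies far below the rest in both strains.

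Past 2-fold, 1 of the 9 genes (ACO1) was higher in rpb4Δ, as were 19% of the ORFs, and 1 (CIT1) was lower in rpb4Δ, as were 11.4% of the ORFs. The median ratio was 1.01 over the 9 genes and 1.11 over the ORFs (0.15 on the log2 scale). Relative to the ORF median, the ratio was 2.86 for ACO1 and 0.240 for CIT1. The ratios of FUM1 and IDH1 changed direction with this scaling, to 0.913 and 0.935. The counting interval of the unscaled ratio did not include 1 in 7 of the 9 genes, the exceptions being IDH1 and FUM1, and in 76.6% of the ORFs, so the members did not stand apart on this count. In pooled bulk profiles, a higher RPM value cannot be told apart from a lower contribution of other transcripts to the same library.

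The number of sites per gene was larger in the deeper ubp8Δ library for 8 of the 9 genes, a count not made over the ORFs. The number ranged from 8 to 30 in rpb4Δ and from 12 to 43 in ubp8Δ. Its median was 16 in rpb4Δ and 22 in ubp8Δ, against 13 in rpb4Δ and 19 in ubp8Δ over the ORFs. At equal reads per gene in both strains, the median over the 9 genes was 16 sites in rpb4Δ and 17.3 sites in ubp8Δ. Over the ORFs it was 13 in rpb4Δ and 14.05 in ubp8Δ, so most of the excess in ubp8Δ disappeared in both sets. The widest gap at equal reads was in MDH1, with 20 sites in rpb4Δ and an expected 28.0 sites in ubp8Δ. ACO1 went the other way, with 30 sites in rpb4Δ and 25.5 in ubp8Δ, as did FUM1, with 20 in rpb4Δ and 17.3 in ubp8Δ.

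The strains shared the highest site, to the nucleotide, in 5 of the 9 genes and in 60.5% of the ORFs. The share of the profile common to both strains was highest in FUM1, at 84.7%, followed by CIT1, at 77.2%, and lowest in KGD1, at 38.3%, and IDH1, at 41.8%. KGD1 and IDH1 were also among the 3 genes with the fewest reads in rpb4Δ, and the part of read number in their low overlap was not tested. The median overlap was 64.97% over the 9 genes and 65.7% over the ORFs.

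Reads that end inside the ORF rather than in the window were measured separately. Their share was lower in rpb4Δ in 9 of 9 genes, compared with 75.3% of the 4603 ORFs with at least 20 ORF and window reads in both strains. The median share was 2.94% in rpb4Δ and 12.5% in ubp8Δ over the 9 genes, and 3.38% in rpb4Δ and 11.7% in ubp8Δ over the ORFs. The direction was thus the common one in these libraries. The ubp8Δ median of the 9 genes is the value of IDH1, whose 40 ORF reads lay at only 2 positions. The counting intervals of the strains did not overlap for CIT1, ACO1, KGD1 and MDH1, 4 of the 9 genes, and for 46.3% of the ORFs in the same direction.

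KGD1 and CIT1 stood apart in the size of this difference. The KGD1 ORF held 1 read in rpb4Δ (2.94%, 0.0744% to 15.3%) and 402 reads at 53 positions in ubp8Δ (55.4%, 51.7% to 59.0%). In ubp8Δ, more KGD1 reads thus ended within the coding sequence than in the window after it. The ORF signal had a ratio of 0.0160 (0.000404 to 0.0897), and 2.17% of the ORFs had a larger difference in the same direction. The CIT1 ORF held 3 reads in rpb4Δ (6.0%, 1.26% to 16.6%) and 738 reads at 56 positions in ubp8Δ (39.4%, 37.2% to 41.7%). Its ORF signal had a ratio of 0.0262 (0.00538 to 0.0767), and 10.2% of the ORFs had a larger difference. Counted over ORF and window together, the RPM ratio was 0.302 for KGD1 and 0.172 for CIT1, so KGD1 also passed 2-fold on that count.

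**Figure D4:**
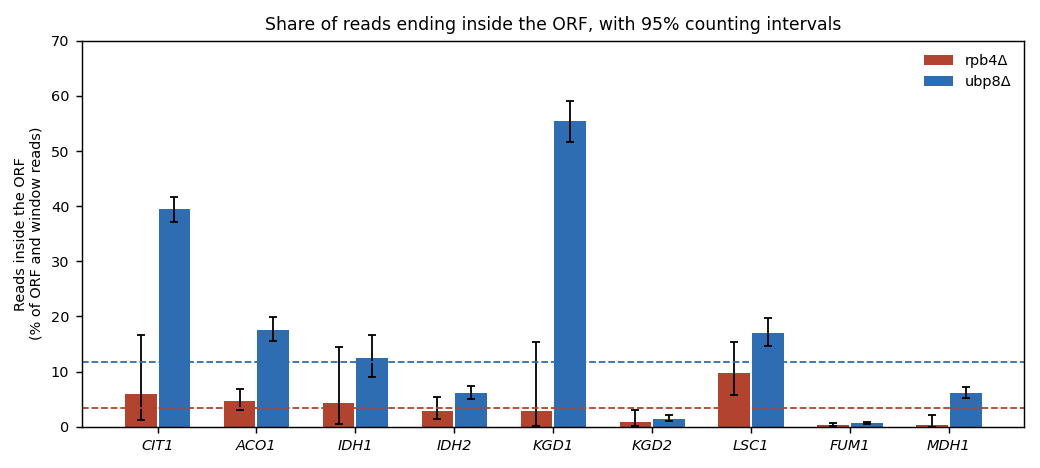
Share of reads ending inside the ORF (percent of ORF and window reads) in rpb4Δ (left bar) and ubp8Δ (right bar) for the 9 genes with enough reads. Black bars are 95% counting intervals, and dashed lines give the median over 4603 ORFs, 3.38% in rpb4Δ and 11.7% in ubp8Δ. KGD1 and CIT1 reach 55.4% and 39.4% in ubp8Δ.

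ACO1 had 25 ORF reads in rpb4Δ (4.74%, 3.09% to 6.92%) and 218 in ubp8Δ (17.6%, 15.5% to 19.8%), and MDH1 had 1 ORF read in rpb4Δ (0.386%, 0.00977% to 2.13%) and 134 in ubp8Δ (6.09%, 5.13% to 7.18%). At the other end stood FUM1 and KGD2, whose coding sequences held few ends in either strain. FUM1 had 0.298% in rpb4Δ and 0.631% in ubp8Δ, and KGD2 had 0.840% in rpb4Δ and 1.5% in ubp8Δ. Summed over the 10 genes there were 65 ORF reads in rpb4Δ (2.18%) and 1880 in ubp8Δ (9.61%), against 5.13% in rpb4Δ and 10.8% in ubp8Δ over the 5798 ORFs. CIT1 and KGD1 supplied most of the ubp8Δ sum.

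Sequence elements known from yeast 3′ end formation were searched by their letters around the highest sites, on both strands. The efficiency element TATATA occurred on the sense strand within 100 nt upstream of the highest site in CIT1, IDH1, IDH2 and LSC1, which is 44.4% of the 9 genes in either strain, against 44.96% of the ORFs in rpb4Δ and 43.62% in ubp8Δ. It reads the same on both strands, so the count on the opposite strand is identical. In LSC1 the match overlaps the TGTATATA element named above. In CIT1 the nearest match began 34 nt upstream of the site at 120 nt. In IDH1 it began 80 nt upstream of the rpb4Δ site at 171 nt and 33 nt upstream of the ubp8Δ site at 124 nt, and in IDH2 33 nt upstream of the rpb4Δ site at 154 nt and 55 nt upstream of the ubp8Δ site at 176 nt. The positioning elements AATAAA and AAGAAA were searched within 40 nt. Among the 9 genes, AATAAA was found on the sense strand only in IDH2, where it began 22 nt upstream of the site at 154 nt, and in 9.39% of the ORFs in rpb4Δ and 9.09% in ubp8Δ. AAGAAA was found on the sense strand of none of the 9 genes, and in 4.10% of the ORFs in rpb4Δ and 3.58% in ubp8Δ. The absence of a match says only that these letters are not in the searched stretch.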

How the data were processed

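3′ READS libraries of the rpb4Δ and ubp8Δ strains were analysed; the 8 NET-seq samples are outside this description. The authors trimmed and counted the Ts that open read 1, discarded reads without one, placed the next 17 bases on SacCer3 with bowtie (no mismatch, unique matches), and retained reads whose As the genome does not encode. Bowtie, cutadapt and TopHat2 are listed in the submitters' processing notes without versions or roles. Libraries were made from 25 µg of total RNA with 18 cycles of final PCR.

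In the deposited profiles, the value at a position is given in percent of the highest position of that feature. Window, ORF and highest-position totals were deposited in RPM, scaled by the authors. The ORF share was deposited in percent and was computed again from recovered reads. The scaling is not given in the sources used here. Below 60 RPM, all 4611 highest-position values in rpb4Δ and all 4917 in ubp8Δ (100%) were whole multiples of 1 value within rounding to 2 decimals, and this was taken as 1 read. No count model was run, since each strain has 1 pooled profile. Reads per position were rounded and set to at least 1, and their sum differs from the window total by 1 read in CIT1 and ACO1 of ubp8Δ.

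Weighted averages, sites, highest positions, ratios and ORF shares were computed with scipy 1.17.1, pandas 2.3.3 and numpy 2.4.6 under Python 3.11.15. Plots were drawn with matplotlib 3.10.9. The SE of a weighted average is the weighted SD divided by the root of the reads. Intervals of shares and ratios are exact (Clopper-Pearson), and those of levels are exact Poisson. Counts over genes required 20 reads in both strains. Sequences and neighbouring genes come from the RefSeq R64 assembly, in which all 10 members and 5785 of 5792 ORFs found by name have the same start and end. The functions were tested on simulated data (6 of 6 checks passed).

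The members, the gene lists and the stretches of the windows were chosen with earlier results or values of these data known. Named were all 10 members, the genes that overlap their windows, the deleted genes and, from each other list, the gene with the largest difference past 10 nt or 2-fold in each direction. Other measures of position, site definitions, read minimums and scalings were tried.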

Additional observations from a re-analysis of the deposited data

How the results depend on the processing

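The number of the 9 genes displaced by at least 10 nt was 3, became 5 with sites of at least 5% of the window only, and was 1 of 6 with at least 100 reads in both strains, where IDH1, KGD1 and CIT1 no longer enter. It was between 2 and 4 with the other measures of position, windows and read minimums. At the main setting the share of the ORFs was 39.2%. Under the changed settings no share of the ORFs was computed, so the changed counts cannot be set against other genes. The displacement of KGD1 was 31.6 nt by the weighted average and -20 nt by the highest position. That of LSC1 was 20.8 nt, and -4.46 nt with sites of at least 5%, which leaves out its weak proximal sites; it was 0 nt by the highest and by the median position and 3.00 nt when positions at or next to encoded As are left out. IDH1 stayed downstream in rpb4Δ in every alternative, between 23.4 nt (without the site at 171 nt, chosen after seeing the data) and 106.3 nt (positions at or next to encoded As left out). This last setting keeps the IDH1 site at 171 nt of rpb4Δ but drops its highest ubp8Δ site, at 124 nt, which widens the difference. It drops every other highest site of the 9 genes too, MDH1 included, and gave no value for KGD1. The median number of sites was 16 in rpb4Δ and 22 in ubp8Δ. It was 10 in rpb4Δ and 12 in ubp8Δ with sites of at least 1%, 6 in rpb4Δ and 5 in ubp8Δ with sites of at least 5%, and 4 in rpb4Δ and 7 in ubp8Δ with sites within 10 nt merged, so the order of the strains depends on the definition. The calls of ACO1 and CIT1 past 2-fold were kept under all scalings, and KGD1 joined them with ORF and window counted together. The lower ORF share in rpb4Δ held in 9 of 9 genes with the deposited percent column and in 10 of 10 with no minimum of reads, which was added after seeing the data. The MDH1 difference, 0.10 nt, was -32.9 nt with sites of at least 5%, 25.1 nt before HOT13 and 129.6 nt with encoded As left out, and was not called. No paired analysis was possible because the replicates of each strain are pooled in 1 profile, and for the same reason no replicate could be left out. Depth limits the rpb4Δ values of KGD1, IDH1 and CIT1, which rest on 33, 45 and 47 reads.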

Other observations

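Genes around the cycle were described in the same way. Of 14 other cycle enzymes and isozymes, 13 were found by name and 10 had at least 20 window reads in both strains. Of these 10, 2 lay at least 10 nt downstream and 1 upstream in rpb4Δ, against 18.3% and 20.9% of the ORFs, and 1 was past 2-fold higher and 1 lower in rpb4Δ, against 19% and 11.4% of the ORFs. CIT2, the peroxisomal citrate synthase and a known target of the retrograde regulators, was the higher one. Its window held 357 reads (141.2 RPM) in rpb4Δ and 397 reads (24.4 RPM) in ubp8Δ, a ratio of 5.79. This ratio leaves out the reads inside the CIT2 ORF, 66 (15.6%) in rpb4Δ and 470 (54.2%) in ubp8Δ. The window levels of CIT1 and CIT2 thus differed in opposite directions. IDP1, the mitochondrial NADP-dependent isocitrate dehydrogenase, had a ratio of 0.352, with 40 reads in rpb4Δ and 732 in ubp8Δ, and the largest downstream difference, 23.8 ± 12.2 nt (counting SE). IDP3, its peroxisomal isozyme, lay upstream by 31.6 nt, at 154.7 nt in rpb4Δ and 186.3 nt in ubp8Δ, with 23 reads in rpb4Δ and 95 in ubp8Δ.

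The 6 genes of pyruvate dehydrogenase and pyruvate carboxylase, which feed the cycle, all had enough reads. Of these 6, 1 lay at least 10 nt downstream and 0 upstream in rpb4Δ, against 18.3% and 20.9% of the ORFs. Past 2-fold, 1 was higher and 1 lower in rpb4Δ, against 19% and 11.4% of the ORFs. LAT1, the acetyltransferase component of pyruvate dehydrogenase, was higher in rpb4Δ, with 3939.0 RPM in rpb4Δ and 1814.9 RPM in ubp8Δ, a ratio of 2.17. PYC2, a pyruvate carboxylase, was lower, with 34.8 RPM in rpb4Δ and 71.9 RPM in ubp8Δ, and lay 20.9 ± 4.08 nt downstream, while its highest site was at 167 nt in both strains. The glyoxylate cycle genes ICL1 and MLS1 had 3 and 12 window reads in rpb4Δ and 145 and 60 in ubp8Δ, too few for the counts.

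Among 7 retrograde and Hap regulators, 5 had enough reads, and 2 of these lay at least 10 nt downstream in rpb4Δ, against 18.3% of the ORFs, and 0 upstream, against 20.9%. Past 2-fold, 0 of the 5 were higher in rpb4Δ and 1 was lower, against 19% and 11.4% of the ORFs. HAP4, the activating subunit of the Hap complex, had both the largest displacement and the lowest ratio. Its weighted average was 363.4 nt in rpb4Δ and 236.3 nt in ubp8Δ, a difference of 127.1 ± 3.44 nt, and its window held 51 reads (20.2 RPM) in rpb4Δ and 1398 reads (85.9 RPM) in ubp8Δ. Its highest site, at 364 nt, was the same in both strains. The share of reads inside the ORF was lower in rpb4Δ in 9 of 11 other cycle genes, 6 of 6 pyruvate genes and 5 of 5 regulators, against 75.3% of the ORFs. The exceptions were IDP1, with 27.3% in rpb4Δ and 14.8% in ubp8Δ, and IDP2, a cytosolic isozyme named after its value was seen, with 90.3% in rpb4Δ and 79.6% in ubp8Δ.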
